A study of Mus musculus with 11 samples.

Results

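Hox genes encode homeodomain transcription factors that give cells along the head-to-tail axis of the embryo their regional identity. In the mouse they lie in 4 clusters, Hoxa, Hoxb, Hoxc and Hoxd, in which the order of the genes follows the order of their expression: low-numbered genes are used towards the head and high-numbered genes towards the tail. Fibroblasts keep a Hox pattern that reflects the body site they came from. In undifferentiated embryonic stem cells the clusters are held silent by polycomb complexes. Genes with the same number in different clusters are paralogs.

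The members are the probe sets with a single gene symbol of the form Hoxa, Hoxb, Hoxc or Hoxd followed by a number from 1 to 13, reduced per gene to the probe set whose mean over all 11 arrays was highest. This gave 33 of the 18193 genes measured, 9 of Hoxa on chromosome 6, 9 of Hoxb on chromosome 11, 7 of Hoxc on chromosome 15 and 8 of Hoxd on chromosome 2. RefSeq lists 39 genes in the 4 clusters, and those that are not members are not analysed here. Hoxb8 and Hoxd4 are among these, being named only on probe sets that carry a second symbol. Of the 33 members 11 had several probe sets.

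Total RNA of 5 kinds of cells was measured on Affymetrix arrays, and values are log2 units made by RMA. The pluripotent groups had 3 arrays each: ViPSC, which are induced pluripotent (iPS) cells derived from ventricular myocytes, TiPSC, their counterparts derived from fibroblasts of the tail tip, and mESC, embryonic stem cells with the same genetic background. The source cells came from pups of postnatal day 1, the tail tip fibroblasts (TTF) and the ventricular cardiomyocytes (VM), with 1 array each and so no measure of spread. The labels give a mixed C57/Bl and BlackSwiss background, and the pluripotent cells were kept with LIF on irradiated embryonic fibroblast feeders, which were thinned out by plating before RNA was taken. The labels name no clones, no reprogramming method and no separate cultures, so p-values measure the spread between arrays, which may be technical. In these bulk samples, fewer cells of a type and less RNA per cell cannot be told apart.

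Leaving out mESC 1 moved the number of genes that passed the test described further on from 390 to 2519 between ViPSC and mESC and from 115 to 3038 between TiPSC and mESC, and the main results against mESC are given without it as well.

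The labelled cell types carried their own markers. The median of 8 pluripotency markers lay between 12.14 and 12.75 on the 9 pluripotent arrays, against 3.95 in TTF and 4.09 in VM. The median of 15 fibroblast and feeder markers was 12.36 in TTF and 6.72 in VM, and the median of 8 cardiomyocyte markers was 13.81 in VM and 3.89 in TTF. Each of the 15 was higher in TTF, but in VM they ran from 4.28 for Fap to 13.12 for Col3a1, with Postn at 12.39 and Dcn at 11.62. The VM array thus also carried some fibroblast genes at high values. It carried endothelial markers as well, with a median over 6 genes of 10.63 against 3.92 in TTF. Probe sets differ in their response and have no detection calls here. The level of a Hox gene is therefore compared between arrays only, never with the level of another gene, except in correlations across members.

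Most of the Hox signal on these arrays was in the tail tip fibroblasts. The TTF array was at least 2 log2 units above the VM array for 8 of 33 members (24.2%), namely Hoxa10, Hoxb3, Hoxb6, Hoxb9, Hoxb13, Hoxc8, Hoxc10 and Hoxc13. Of all genes 4.62% were higher in TTF by that much. No member was higher in VM by 2 or even by 1 log2 unit, against 4.68% and 10.6% of all genes. The median difference over the 33 members was 0.53 log2 units, against 0.02 over all genes. With 1 array on each side these differences have no replicate check and no p-value.

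TTF also stood above the pluripotent cells, a comparison that uses the same TTF array. It lay above all 9 pluripotent arrays for 17 of 33 members (51.5%, against 28.7% of all genes), by at least 1 log2 unit for 12 (36.4%, against 11.4%) and by at least 2 for 8 (24.2%, against 5.27%). These 8 were the members named above with Hoxb2 in place of Hoxb3. Against mESC, centring the arrays ended the call of Hoxb6, and averaging probe sets put Hoxa9 in place of Hoxa10, against TiPSC as well. The same 8 were at least 2 log2 units above every TiPSC array, where 6.01% of all genes were, and above every mESC array, where 5.86% were. No member was at least 2 log2 units below every TiPSC array or every mESC array, where 4.51% and 4.07% of all genes were. Hoxb3, at 1.84 above the highest pluripotent array, was the nearest below the limit of 2.

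**Figure D1:**
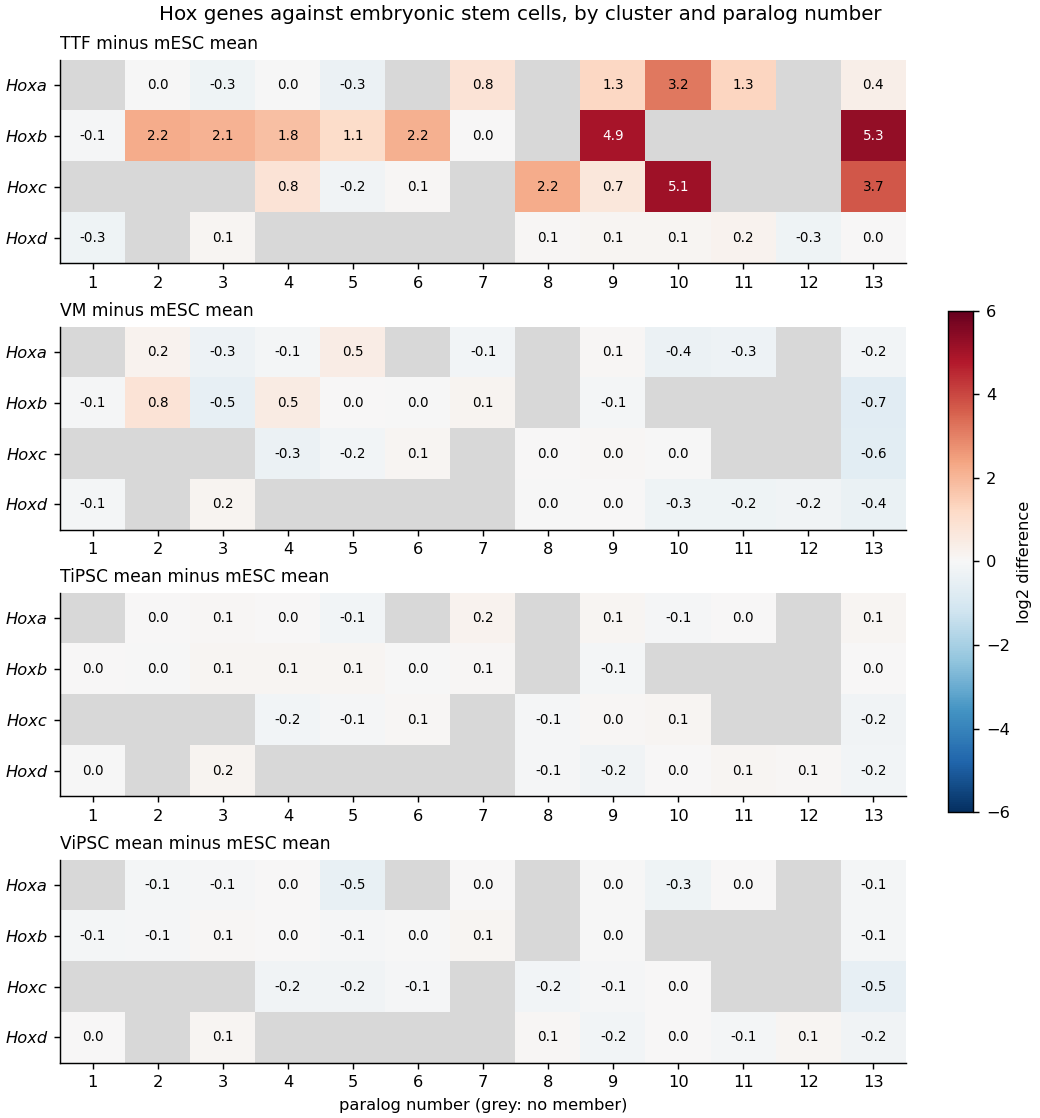
Log2 difference from the mean of the 3 mESC arrays for every member, by cluster (rows) and paralog number (columns), in TTF, VM, the TiPSC mean and the ViPSC mean, with grey where there is no member. TTF reaches 5.26 for Hoxb13 and 5.09 for Hoxc10, Hoxd stays near 0, and in VM and the induced cells no difference reaches 1.

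High-numbered members carried the largest differences. Over the 14 members numbered 9 to 13 the median of TTF minus VM was 0.90 and 5 reached 2 log2 units. Over the 12 members numbered 4 to 8 the median was 0.53 and 2 reached it, and over the 7 members numbered 1 to 3 it was 0.01 and 1 reached it. The 5 high-numbered genes were Hoxa10, Hoxb9, Hoxb13, Hoxc10 and Hoxc13, and they were also the 5 that reached 3 log2 units. The grouping by number is a description of 1 array against another.

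The Hoxb cluster had the most members past 2 log2 units, 4 of 9, against 3 of 7 for Hoxc, 1 of 9 for Hoxa and 0 of 8 for Hoxd. Hoxb13, which marks the tail end of the axis and of the hindgut, was at 9.43 in TTF and 3.48 in VM, and at 4.05, 4.01 and 4.11 in ViPSC, 3.89, 4.34 and 4.32 in TiPSC and 4.26, 4.29 and 3.96 in mESC. The TTF array thus stood alone, 5.09 above the highest pluripotent array, and the 3 pluripotent groups overlapped. Hoxb13 is set apart from the rest of its cluster by a long stretch without other Hox genes, and Hoxb9 is the nearest Hox gene on its side. Hoxb9, a gene of the trunk and the thoracic skeleton, was at 9.34 in TTF and 4.29 in VM, and at 4.40, 4.38 and 4.31 in ViPSC, 4.38, 4.44 and 4.04 in TiPSC and 4.38, 4.24 and 4.55 in mESC. Again the 9 pluripotent arrays and VM overlapped and TTF was apart.

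The low-numbered Hoxb genes were higher in TTF as well, by smaller amounts. Hoxb3 was at 6.77 in TTF and 4.21 in VM, and at 4.85, 4.73 and 4.76 in ViPSC, 4.74, 4.93 and 4.84 in TiPSC and 4.79, 4.77 and 4.52 in mESC, so VM was the lowest of all 11 on this probe set. On the other Hoxb3 probe set VM was at 4.84, above the highest pluripotent array at 4.79, and TTF at 5.42. Hoxb6 was at 5.27 in TTF and 3.08 in VM, inside the pluripotent range of 2.96 to 3.21. Hoxb4, Hoxb2 and Hoxb5 were 1.34, 1.42 and 1.06 log2 units higher in TTF than in VM. The other Hoxb4 probe set gave 0.36. Hoxb1, a gene of the hindbrain and the lowest-numbered member of its cluster, was at 3.02 in TTF and 3.01 in VM, and at 2.97, 2.995 and 2.95 in ViPSC, 3.02, 3.11 and 3.25 in TiPSC and 2.93, 3.22 and 3.16 in mESC, with both source cells inside the pluripotent range. Hoxb7 was at 3.56 in TTF and 3.69 in VM, both within the pluripotent range of 3.49 to 3.87. On the chosen probe sets 7 of 9 Hoxb members were at least 1 log2 unit higher in TTF than in VM, where 13.6% of all genes were.

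In the Hoxc cluster the largest differences were those of the high-numbered genes. Hoxc10, a gene of the lumbar region and the hindlimb, was at 8.20 in TTF and 3.11 in VM, and at 3.36, 3.04 and 2.97 in ViPSC, 3.23, 3.36 and 3.12 in TiPSC and 3.08, 3.08 and 3.17 in mESC. VM lay within the range of the pluripotent arrays and TTF 4.84 above the highest of them. Hoxc13, known for its part in hair and nail formation, was at 8.40 in TTF and 4.03 in VM, and at 4.15, 4.48 and 3.85 in ViPSC, 4.29, 4.53 and 4.62 in TiPSC and 4.33, 4.80 and 4.89 in mESC. Keratinocyte markers, which would mark skin epithelium beside the fibroblasts, had a median over 5 genes of 4.16 in TTF, against 3.92 to 4.55 on the pluripotent arrays. Markers of other tail tissues had TTF medians of 3.58 over 6 skeletal muscle genes and 4.04 over 5 cartilage and bone genes, among which Sox9 was at 7.27 in TTF against 5.33 to 5.81 on the pluripotent arrays. The median of 6 smooth muscle genes was 9.05 in TTF and 7.41 in VM, with Tagln at 13.63 and 9.14 and Cnn1 at 10.01 and 6.57. The part of these cells in the Hox values was not tested.

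Hoxc8, a gene of the thoracic region, was at 5.54 in TTF and 3.32 in VM, and at 2.85, 3.41 and 3.07 in ViPSC, 3.13, 3.26 and 3.26 in TiPSC and 3.19, 3.38 and 3.32 in mESC. Its TTF value was 2.13 above the highest pluripotent array. Hoxc4, the lowest-numbered gene of the cluster, was at 4.87 in TTF and 3.70 in VM, and at 3.93, 3.92 and 3.65 in ViPSC, 4.02, 3.84 and 3.73 in TiPSC and 4.02, 4.19 and 3.93 in mESC. Hoxc5 and Hoxc6, its neighbours, were both within 0.06 log2 units between TTF and VM. Hoxc9 was 0.61 higher in TTF. On these probe sets Hoxc8, Hoxc10 and Hoxc13 were thus past 2 log2 units and Hoxc9 between them below 1. Probe sets differ in their response, so this order along the cluster is only a description of 1 array against another.

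In the Hoxa cluster only Hoxa10 passed 2 log2 units. Hoxa10, a gene of the lumbar region and the uterus, was at 6.55 in TTF and 3.02 in VM, and at 3.12, 3.06 and 3.13 in ViPSC, 3.28, 3.43 and 3.27 in TiPSC and 3.28, 3.29 and 3.58 in mESC. VM was the lowest of the 11 arrays. Its neighbours Hoxa9, Hoxa11 and Hoxa7 were 1.19, 1.61 and 0.95 log2 units higher in TTF than in VM. Towards the tail end Hoxa13, needed for digits and the hindgut, was at 4.21 in TTF and 3.68 in VM, and at 3.79, 3.74 and 3.68 in ViPSC, 3.84, 4.08 and 3.94 in TiPSC and 3.84, 3.84 and 3.88 in mESC. At the head end Hoxa2, the patterning gene of the second pharyngeal arch, was at 3.19 in TTF and 3.42 in VM, and at 3.15, 3.14 and 3.06 in ViPSC, 3.35, 3.23 and 3.14 in TiPSC and 3.54, 3.12 and 2.99 in mESC. Both source cells lay within the pluripotent range. Hoxa3 and Hoxa4 were at most 0.08 apart between TTF and VM.

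For Hoxa genes the choice of probe set mattered. The chosen Hoxa9 probe set was 1.19 higher in TTF than in VM, while the other Hoxa9 probe set was at 7.32 in TTF and 3.46 in VM, a difference of 3.86. The second Hoxa10 probe set showed a difference of 0.59 where the chosen one showed 3.53. For Hoxa5, a gene of the cervical and upper thoracic region, the sign turned: the chosen probe set was 0.80 lower in TTF than in VM and the other 1.31 higher. Among the 11 members with several probe sets, 5 had probe sets that disagreed by at least 1 log2 unit, namely Hoxa3, Hoxa5, Hoxa9, Hoxa10 and Hoxb3. For these 5 the size of the difference is uncertain.

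**Figure D2:**
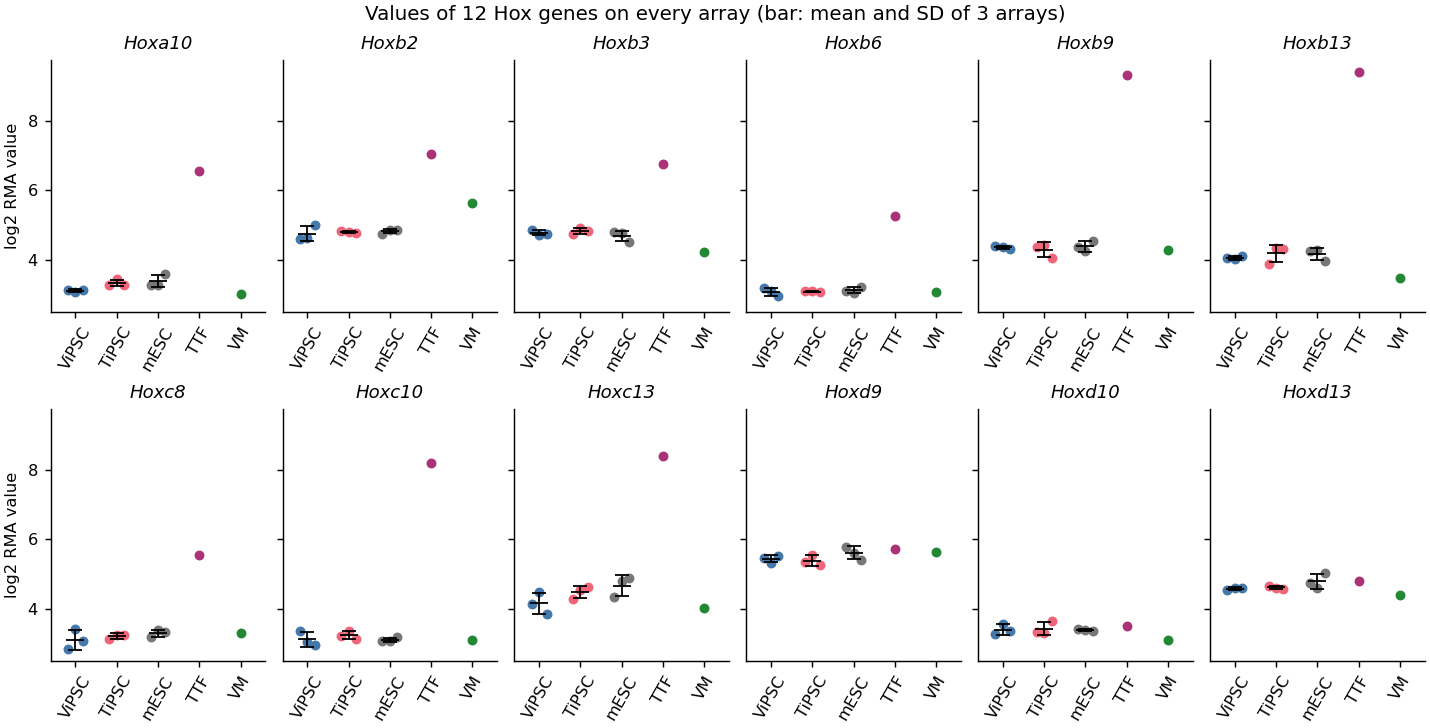
Log2 RMA values of 12 Hox genes on each array, with points for arrays grouped as ViPSC, TiPSC, mESC (3 each), TTF and VM (1 each) and bars for the mean and SD of 3 arrays. The TTF point stands above all others for the 9 Hoxa, Hoxb and Hoxc genes (9.43 for Hoxb13) and among the other points for Hoxd9, Hoxd10 and Hoxd13.

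The Hoxd members were at like values in every cell type. The 8 Hoxd members differed between TTF and VM by −0.13 to 0.48 log2 units, with a median of 0.10, and for none of them was TTF above all 9 pluripotent arrays. Hoxd13, the digit gene, was at 4.80 in TTF and 4.40 in VM, and at 4.53, 4.61 and 4.61 in ViPSC, 4.67, 4.61 and 4.58 in TiPSC and 4.73, 4.61 and 5.03 in mESC. Hoxd1, at the other end of the cluster, was at 3.01 in TTF and 3.13 in VM, and at 3.26, 3.45 and 3.20 in ViPSC, 3.27, 3.02 and 3.42 in TiPSC and 3.26, 3.17 and 3.35 in mESC. TTF was among the pluripotent arrays for Hoxd13 and just below the lowest of them for Hoxd1. Hoxd10, the paralog of Hoxa10 and Hoxc10, was at 3.50 in TTF and 3.11 in VM, with pluripotent values from 3.27 to 3.65.

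Paralogs of the same number therefore parted by cluster. In paralog group 13, TTF exceeded VM by 5.94 for Hoxb13 and 4.37 for Hoxc13, but by 0.53 for Hoxa13 and 0.40 for Hoxd13. In group 10 the differences were 5.09 for Hoxc10, 3.53 for Hoxa10 and 0.38 for Hoxd10. In group 9 they were 5.05 for Hoxb9, 1.19 for Hoxa9, 0.61 for Hoxc9 and 0.09 for Hoxd9. The other Hoxa9 probe set gave 3.86 and the other Hoxa10 probe set 0.59, so the places of Hoxa9 and Hoxa10 depend on the probe set. A difference in log2 units can be compared between genes only with care, because probe sets near the bottom of the scale compress it.

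The start regions of 2 such paralog pairs are shown to let their sequence be compared: Hoxa9 and Hoxa10, higher in TTF, and Hoxd9 and Hoxd10, at like values in all cells. Each is the 250 bases before a RefSeq transcript start on GRCm38.p6, read 5′ to 3′ on the gene's strand, with every CG dinucleotide in capitals. The table gives 2 starts for Hoxa10. The Hoxa9 region is chr6:52227371-52227620 on the minus strand, the Hoxa10 regions are chr6:52240855-52241104 and chr6:52234940-52235189 on the minus strand, the Hoxd9 region is chr2:74697513-74697762 and the Hoxd10 region chr2:74691641-74691890, both on the plus strand.
Hoxa9: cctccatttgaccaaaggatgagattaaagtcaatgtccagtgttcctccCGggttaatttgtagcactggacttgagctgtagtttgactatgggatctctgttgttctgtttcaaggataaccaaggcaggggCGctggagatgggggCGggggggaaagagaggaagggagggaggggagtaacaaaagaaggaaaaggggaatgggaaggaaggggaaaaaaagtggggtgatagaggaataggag
Hoxa10, upstream start: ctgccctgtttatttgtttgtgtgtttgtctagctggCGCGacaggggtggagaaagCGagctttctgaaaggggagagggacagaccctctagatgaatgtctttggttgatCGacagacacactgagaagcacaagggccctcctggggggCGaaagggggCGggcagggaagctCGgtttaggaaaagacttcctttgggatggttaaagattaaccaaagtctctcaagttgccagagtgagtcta
Hoxa10, downstream start: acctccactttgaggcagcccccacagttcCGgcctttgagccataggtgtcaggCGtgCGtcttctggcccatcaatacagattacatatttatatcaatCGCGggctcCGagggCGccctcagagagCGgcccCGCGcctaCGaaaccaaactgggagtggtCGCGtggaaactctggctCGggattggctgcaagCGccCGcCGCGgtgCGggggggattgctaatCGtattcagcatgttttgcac
Hoxd9: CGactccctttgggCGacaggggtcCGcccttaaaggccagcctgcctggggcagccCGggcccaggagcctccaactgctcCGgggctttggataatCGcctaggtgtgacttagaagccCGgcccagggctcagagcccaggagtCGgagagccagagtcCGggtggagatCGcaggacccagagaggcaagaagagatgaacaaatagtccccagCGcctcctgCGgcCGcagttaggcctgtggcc
Hoxd10: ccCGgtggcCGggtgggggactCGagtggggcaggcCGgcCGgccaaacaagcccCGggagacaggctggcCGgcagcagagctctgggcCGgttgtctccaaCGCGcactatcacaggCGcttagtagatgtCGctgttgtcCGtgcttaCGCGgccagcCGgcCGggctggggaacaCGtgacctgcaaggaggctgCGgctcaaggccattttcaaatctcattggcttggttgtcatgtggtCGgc
These regions hold 3 CG dinucleotides for Hoxa9, 7 and 20 for the upstream and downstream Hoxa10 starts, 13 for Hoxd9 and 20 for Hoxd10. The downstream Hoxa10 start and Hoxd10 hold the same number. The table held 21 start regions of 19 members, with a median of 13 CG dinucleotides, against a median of 6 over all 32851 start regions in it. The letters TATAAA, searched on both strands, were present in 2 of the 21, the downstream Hoxa10 start and Hoxd13, and in 12.4% of all. The letters CAATAAA, also on both strands, were in 0 of the 21 and in 4.20% of all. These counts describe letters in this window only.

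Genes just outside the clusters differed between the source cells about as often as all genes. Of the 40 genes that make up the 5 nearest measured neighbours beyond each end of the 4 clusters, only Ttc30b beyond Hoxd1 was at least 2 log2 units higher in TTF than in VM, and Atp5g1 beyond Hoxb13 and Chn1 beyond Hoxd13 were at least 2 lower, against 4.62% and 4.68% of all genes. At 1 log2 unit 5 of the 40 were higher and 6 lower, against 13.6% and 10.6%. The median difference of the 40 neighbours was −0.11. Next to Hoxb13, the tubulin ligase gene Ttll6 was at 4.64 in TTF and 4.63 in VM. Beyond Hoxa13, the homeobox gene Evx1 was at 4.54 and 4.98, and next to Hoxd13 its relative Evx2 at 4.21 and 4.38. The genes next to Hoxb13 and Hoxc13, which were 5.94 and 4.37 log2 units higher in TTF, thus differed by 0.01 for Ttll6 and −0.96 for Calcoco1.

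**Figure D3:**
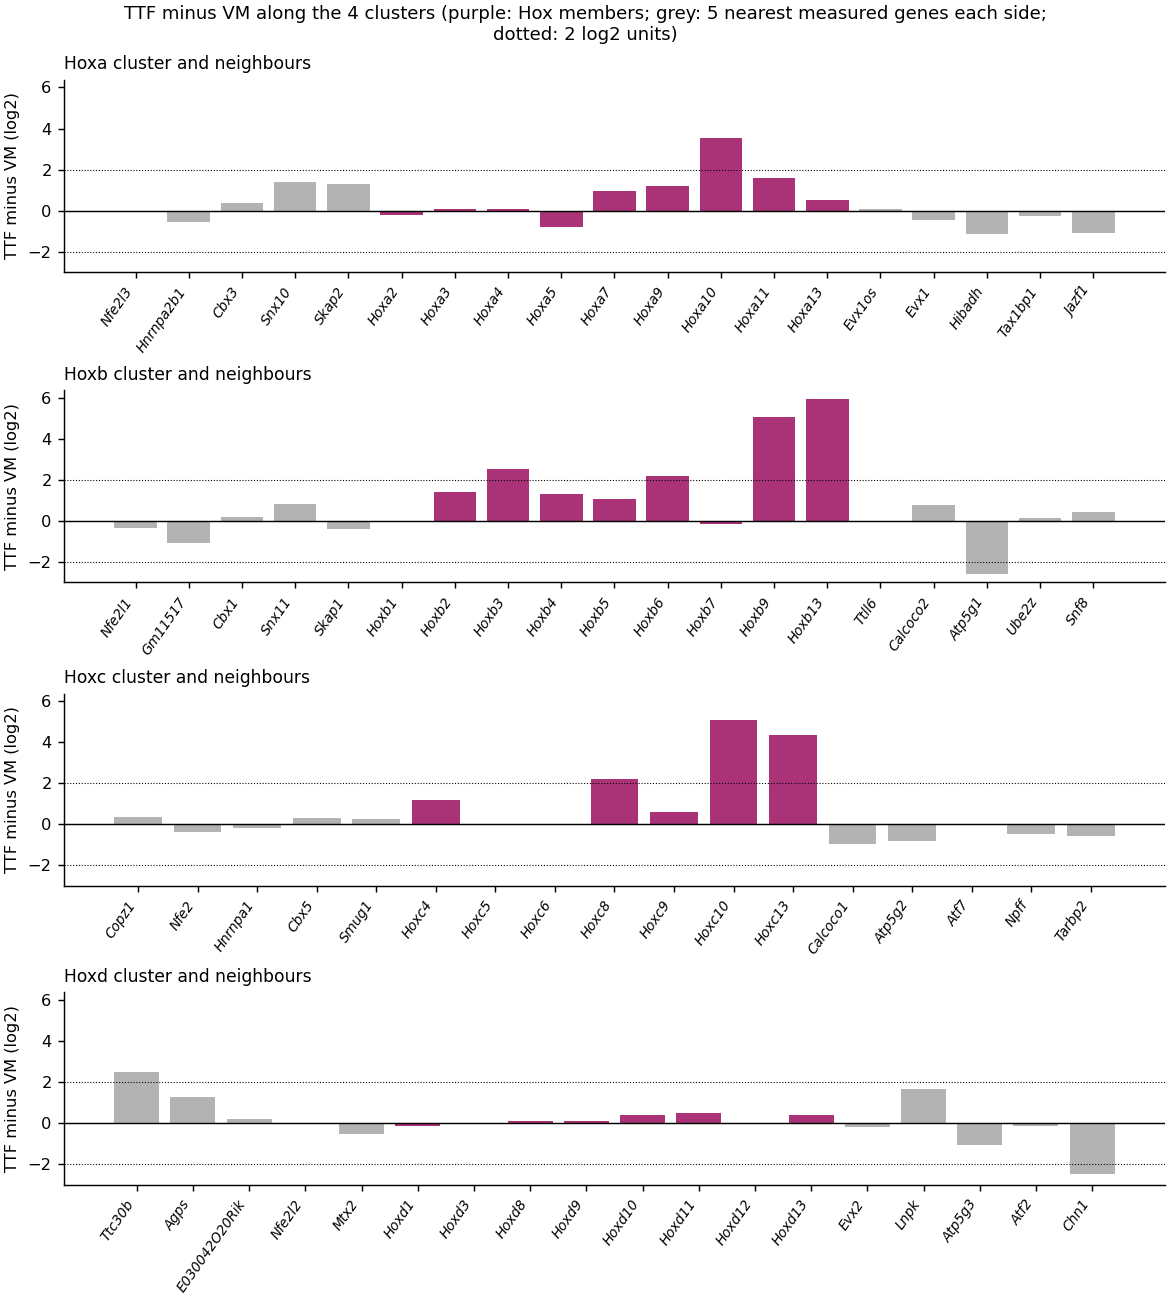
TTF minus VM in log2 units for the members (purple) and the 5 nearest measured genes beyond each end (grey), 1 panel per cluster, ordered from the low-numbered to the high-numbered end; dotted lines mark 2 log2 units. Members reach 5.94 (Hoxb13) and neighbours run from −2.56 to 2.50.

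Of 11 listed non-coding transcripts and Evx genes of the clusters 5 were measured, and 2 of them, both non-coding, were at least 2 log2 units higher in TTF than in VM (4.62% of all genes were). Hoxa11os, from the Hoxa10 to Hoxa13 end, was at 6.38 in TTF and 3.87 in VM, and its pluripotent values ran from 3.35 to 3.74. Hoxb5os was at 7.72 in TTF and 5.12 in VM, with pluripotent values from 4.65 to 5.11. Hoxd3os1, from the Hoxd cluster, was at 3.57 and 3.48 with pluripotent values from 3.16 to 3.72, so both source cells lay within the pluripotent range. In the 3 replicated comparisons 0 of the 5 passed (limma), and 0 had an unadjusted p under 0.05, against 21.0%, 17.2% and 18.1% of all genes.

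The ventricular cells carried little Hox signal. VM was at least 2 log2 units above every mESC array for 0 of 33 members and above every ViPSC array for 0, where 6.20% and 6.76% of all genes were. It was at least 2 below every array of these groups for 0 members as well, against 4.92% and 6.44% of all genes. At 1 log2 unit all 4 counts were still 0, against 12.6% and 13.8% of all genes higher and 13.9% and 16.7% lower. VM lay above all 9 pluripotent arrays for 3 members (9.09%, against 29.0% of all genes), Hoxa5, Hoxb2 and Hoxb4. The VM value of Hoxa5 was 6.27 and its TTF value 5.47, with pluripotent values from 5.17 to 6.04. On the other Hoxa5 probe set VM was at 3.72 and TTF at 5.03, both above the pluripotent range of 3.02 to 3.34. The VM value of Hoxb2, a hindbrain gene, was 5.64 and its TTF value 7.06, with 4.61, 4.64 and 5.00 in ViPSC, 4.81, 4.81 and 4.76 in TiPSC and 4.75, 4.86 and 4.85 in mESC. The VM value of Hoxb4 was 5.18 and its TTF value 6.52, with 4.70, 4.73 and 4.74 in ViPSC, 4.79, 4.80 and 4.81 in TiPSC and 4.63, 4.80 and 4.66 in mESC. For both genes VM lay between the pluripotent cells and TTF, by 0.63 and 0.37 above the highest pluripotent array. On the other Hoxb4 probe set VM was at 3.89, inside the pluripotent range of 3.46 to 3.93. Fibroblast and endothelial markers were present on this array at medians of 6.72 and 10.63, and their part in these values was not tested. The lowest VM values against mESC were those of Hoxb13 and Hoxc13, 0.69 and 0.64 below the mESC mean.

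Across the members, the VM array was close to the pluripotent arrays and the TTF array was not. Over the 33 members the Pearson correlation of VM with single pluripotent arrays ran from 0.93 to 0.96, and that of TTF from 0.41 to 0.50. Pluripotent arrays correlated with each other at 0.96 to 0.99, and TTF with VM at 0.39. Levels of different genes enter each correlation, and each gene keeps the response of its own probe set on every array. That alone can give high values, and the TTF values rest on the same array as the counts above. The correlations are given as a description only.

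For 7 members TTF was at least 2 log2 units above both VM and all pluripotent arrays. That TTF exceeds TiPSC for these 7 is fixed by their choice, and the values against TiPSC are given as a description. For the 7 the TiPSC mean lay between −0.19 and 0.13 log2 units of the mESC mean, and the ViPSC mean between −0.51 and 0.01. The TTF array was 5.24 log2 units above the TiPSC mean of 4.18 ± 0.25 (SD, n = 3) for Hoxb13 and 5.05 above 4.29 ± 0.21 for Hoxb9. It was 4.96 above the TiPSC mean of 3.24 ± 0.12 for Hoxc10, 3.92 above 4.48 ± 0.18 for Hoxc13 and 3.22 above 3.33 ± 0.09 for Hoxa10. Fibroblast and feeder markers had medians of 5.51 to 6.40 on the TiPSC arrays, with TiPSC 1 the highest, of 5.46 to 6.05 on the mESC arrays and 5.41 to 5.48 on the ViPSC arrays. The part of feeder cells in the pluripotent values was not tested.

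Among the pluripotent cells no Hox gene passed the test. In the limma fit of all 18193 genes, with Benjamini-Hochberg adjustment and a threshold of adjusted p under 0.05, 0 of 33 members passed between ViPSC and TiPSC, where 5.63% of all genes did, 0 between ViPSC and mESC (2.14%) and 0 between TiPSC and mESC (0.632%). At an unadjusted p under 0.05 there were 1, 3 and 0 members, against 21.0%, 17.2% and 18.1% of all genes. These comparisons share arrays, and limma was the only tool run. The lowest adjusted p of a member was 0.166, 0.131 and 0.286 in the same order.

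The 95% intervals describe each log2 difference given the spread between arrays. That spread may be technical, so the intervals do not bound differences between clones or cultures. Only 5 of 33 members were left by the filter on low values, set at 5, and RMA compresses differences near background. For low members a narrow log2 interval therefore does not bound the difference in expression. In the fit of all 9 arrays no 95% interval of any member reached 1 log2 unit in either direction in any of the 3 comparisons. Without mESC 1, 1 interval did, that of Hoxc13 for ViPSC against mESC, from −1.07 to −0.29. The widest reach was that of Hoxc13, from −0.94 to −0.09 for ViPSC against mESC and from −0.75 to 0.10 for ViPSC against TiPSC. The highest upper bound was 0.40, for Hoxd8 between ViPSC and TiPSC and for Hoxd3 between TiPSC and mESC. The range over the 9 pluripotent arrays was under 1 log2 unit for 32 of 33 members and 1.03 for Hoxc13.

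**Figure D4:**
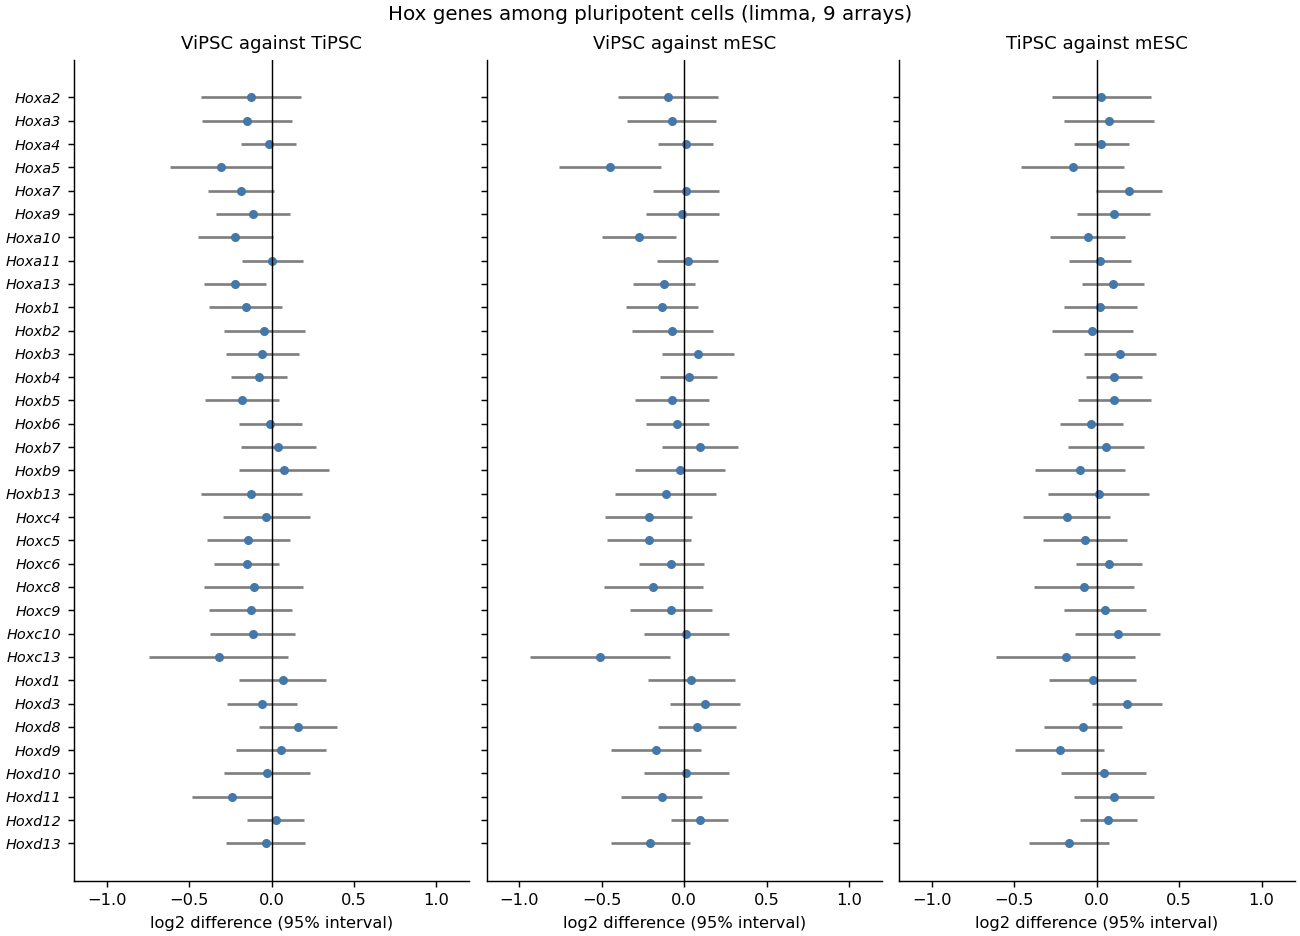
Log2 difference (point) and 95% interval (line) of each of the 33 members in the limma fit of 9 arrays, for ViPSC against TiPSC, ViPSC against mESC and TiPSC against mESC. All intervals lie within 1 log2 unit of 0, and the lowest bound is −0.94 for Hoxc13 between ViPSC and mESC.

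The members with the smallest p-values were mostly lower in ViPSC. Hoxa5 was at 5.17, 5.53 and 5.35 in ViPSC, 5.78, 5.67 and 5.52 in TiPSC and 5.58, 5.79 and 6.04 in mESC, with TTF at 5.47 and VM at 6.27. All 3 ViPSC arrays lay below the mESC arrays, by a mean of −0.45 ± 0.14 (SE, limma adjusted p = 0.131), and the ViPSC and TiPSC arrays overlapped slightly (−0.31 ± 0.14, limma adjusted p = 0.246). These values are those of the chosen Hoxa5 probe set. On the other, ViPSC was at 3.02, 3.24 and 3.27 and mESC at 3.34, 3.28 and 3.28. With all probe sets averaged, ViPSC against mESC was −0.29 (limma adjusted p = 0.159). Hoxa10 was −0.28 ± 0.10 in ViPSC against mESC (limma adjusted p = 0.200) and Hoxc13 −0.51 ± 0.19 (limma adjusted p = 0.202), with overlapping arrays for Hoxc13. When mESC 1 was left out, Hoxa5 at −0.56 on its chosen probe set and Hoxc13 at −0.68 passed (limma adjusted p = 0.0235 and 0.0322) and Hoxa10 at −0.33 did not (limma adjusted p = 0.0821). This was the only setting of those run in which a member passed, and 13.8% of all genes then passed too.

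Between ViPSC and TiPSC, Hoxa13 was at 3.79, 3.74 and 3.68 in ViPSC and 3.84, 4.08 and 3.94 in TiPSC, with mESC at 3.84, 3.84 and 3.88. The difference was −0.22 ± 0.08 (limma adjusted p = 0.166). Hoxd11 was at 3.33, 3.62 and 3.52 in ViPSC, 3.93, 3.65 and 3.62 in TiPSC and 3.61, 3.65 and 3.62 in mESC, with TTF at 3.86 and VM at 3.38 (ViPSC against TiPSC −0.24 ± 0.11, limma adjusted p = 0.243). All differed by amounts that did not pass the threshold. The 3 smallest p-values between TiPSC and mESC were those of Hoxa7, Hoxd3 and Hoxd9. Hoxa7 was at 5.42, 5.50 and 5.50 in ViPSC, 5.70, 5.77 and 5.50 in TiPSC and 5.42, 5.47 and 5.50 in mESC, with TTF at 6.27 and VM at 5.32 (TiPSC against mESC 0.19 ± 0.09, limma adjusted p = 0.286). Hoxd3 was at 3.77, 3.84 and 3.95 in ViPSC, 3.89, 3.99 and 3.85 in TiPSC and 3.78, 3.58 and 3.81 in mESC, with TTF at 3.85 and VM at 3.90 (0.18 ± 0.09, limma adjusted p = 0.338). Hoxd9 was at 5.47, 5.33 and 5.52 in ViPSC, 5.34, 5.56 and 5.25 in TiPSC and 5.79, 5.62 and 5.42 in mESC, with TTF at 5.72 and VM at 5.63 (−0.23 ± 0.12, limma adjusted p = 0.360). For Hoxd3 all TiPSC arrays lay above all mESC arrays, and for Hoxa7 and Hoxd9 they overlapped.

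Most of the small differences were below 0 in ViPSC. Of 33 members 26 were below 0 in ViPSC against TiPSC, with a median of −0.11, while the median over all genes was −0.03. In ViPSC against mESC 21 were below 0, with a median of −0.08 against −0.00 over all genes. The share of all genes below 0 is not given here, so the counts of members below 0 are a description only. For 5 members (15.2%), Hoxa10, Hoxa13, Hoxb1, Hoxb4 and Hoxb5, the ViPSC arrays lay entirely below the TiPSC arrays, and for none entirely above, where the arrays of 33.5% of all genes did not overlap. Between ViPSC and mESC the arrays did not overlap for 3 members, Hoxa5, Hoxa10 and Hoxa13, all lower in ViPSC (22.2% of all genes), and between TiPSC and mESC for 2, Hoxd3 and Hoxd8 (15.8%). Without mESC 1 the medians against mESC were −0.05 for ViPSC and −0.00 for TiPSC, against 0.005 and 0.03 over all genes. In that setting 25 members were below 0 in ViPSC against mESC and 17 in TiPSC against mESC. The arrays of 7 and 8 members then did not overlap, against 45.1% and 39.4% of all genes. The Hoxb genes are on chromosome 11, whose 644 expressed genes (mean of at least 7 log2 units) had a median of 0.44 in ViPSC against TiPSC. The 9 Hoxb members, none of them among the 644, had a median of −0.06 and ran from −0.18 to 0.08.

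Genes of proteins that work with Hox proteins were measured beside the clusters. Pbx, Meis and Pknox proteins bind DNA together with Hox proteins, and 8 of 9 listed genes were measured. Of the 8, 0 passed in any of the 3 replicated comparisons (limma), with 0, 3 and 1 at an unadjusted p under 0.05, against 21.0%, 17.2% and 18.1% of all genes. Without mESC 1, 3 passed in ViPSC against mESC, all lower (Meis2, Pbx3 and Pknox2), and 1, Meis2, in TiPSC against mESC, also lower. In that setting 13.8% and 16.7% of all genes passed. Of the 8, 1 was at least 2 log2 units higher in TTF than in VM (4.62% of all genes were): Pknox2, at 7.49 in TTF, 4.11 in VM and 4.18 to 5.22 on the pluripotent arrays. Meis1 was high in both source cells, at 7.48 in TTF and 7.45 in VM, against 4.45 ± 0.32 in ViPSC, 4.22 ± 0.14 in TiPSC and 4.25 ± 0.36 in mESC (SD, n = 3). Meis2 was at 7.06 and 6.80, against 3.89 ± 0.01, 3.89 ± 0.14 and 4.27 ± 0.29. Meis1 and Meis2 were thus at close values in VM and TTF, above all 9 pluripotent arrays. Meis3 was not: it was at 6.405 in TTF and 5.11 in VM. Its pluripotent values ran from 4.76 to 5.37, so VM lay within that range.

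Regulators upstream of the clusters were measured too. Cdx1, Cdx2 and Cdx4, which act on Hox genes in the posterior embryo, were listed with the other ParaHox genes. Of these 6 genes 0 were past 2 log2 units between TTF and VM, against 4.62% of all genes higher in TTF and 4.68% lower. In the limma test 0 passed, with 2, 1 and 0 at an unadjusted p under 0.05, against 21.0%, 17.2% and 18.1% of all genes. Without mESC 1, Cdx2 passed as higher in ViPSC than in mESC, where 13.8% of all genes passed. Of 21 polycomb genes, which hold Hox clusters silent, 3 were higher and 1 lower in ViPSC than in TiPSC, where 5.63% of all genes passed, and 2 were lower in TiPSC than in mESC, where 0.632% did. In ViPSC against mESC 0 passed (limma), with 7 at an unadjusted p under 0.05, against 17.2% of all genes. Without mESC 1, 2 were higher and 2 lower in ViPSC than in mESC (Bmi1, Kdm2b, Phc1 and Suz12), where 13.8% of all genes passed. The 3 higher in ViPSC than in TiPSC were Suz12, a core subunit (0.95 ± 0.12, limma adjusted p = 0.00424), Jarid2, its partner (0.57 ± 0.09, limma adjusted p = 0.011), and Phf19 (1.78 ± 0.22, limma adjusted p = 0.00424). The 1 lower was Cbx6 (−0.43 ± 0.11, limma adjusted p = 0.0471). Of 16 alternative settings Suz12 and Phf19 passed in 16, Jarid2 in 13 and Cbx6 in 5. With all probe sets averaged, Phf19 was at 0.72 (limma adjusted p = 0.0273), so the size of its difference depends on the probe set. Suz12 and Jarid2 were then at 0.88 and 0.48. Jarid2 and Bmi1 were the 2 lower in TiPSC than in mESC (−0.57 ± 0.09 and −1.10 ± 0.19, limma adjusted p = 0.0346 and 0.0461), and they passed in 7 and 5 of the 16 settings. Without mESC 1 they were at −0.57 and −1.32 (limma adjusted p = 0.00661 and 0.000625), and 2 polycomb genes were then higher and 6 lower in TiPSC, with 16.7% of all genes passing. Jarid2 was at 7.61 in TTF and 10.6 in VM. Suz12 lies on chromosome 11, like the Hoxb genes. Of 18 genes of the trithorax and MLL group, which keep Hox genes active, 0 passed in any of the 3 comparisons (limma), with 5, 2 and 4 at an unadjusted p under 0.05, against 21.0%, 17.2% and 18.1% of all genes. Without mESC 1, 2, 2 and 4 passed, against 11%, 13.8% and 16.7% of all genes. Dot1l, a histone methyltransferase, was at 7.32 in TTF and 10.6 in VM.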

How the data were processed

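The authors deposited log2 values from RMA, per the submitters' processing notes; the RMA version, software and probe annotation file are not given in the sources used here. RMA corrects background, normalizes between arrays and compresses differences near background. Array medians over the 45101 probe sets lay between 4.67 and 4.78. Probe sets were named with the platform's gene table, and 34945 with 1 symbol gave 18193 genes. Differences among ViPSC, TiPSC and mESC were fitted with limma 3.58.1 in R 4.3.3 over all genes and 9 arrays (1 mean per group, eBayes, two-sided), with Benjamini-Hochberg adjustment. The script was checked on simulated data. TTF and VM, with 1 array each, were compared without a test, by differences of at least 2 log2 units. The members and gene lists were chosen with earlier results of these data known. Values on every array are given for members past the threshold, for up to 3 members per cluster with the largest TTF to VM difference of at least 2 log2 units in each direction, for the lowest- and highest-numbered member of each cluster and for the 3 smallest p-values per comparison. Hoxb2 and Hoxb4 were added after their values were seen. Of the other lists, genes past the test and the 3 largest source cell differences of at least 2 in each direction are named. Meis1, Meis2, Meis3, Tbx18, Msx2, Hand1, Six2, Sox9, Tagln, Cnn1, Fap, Col3a1, Postn, Dcn, Hoxd3os1 and the Evx genes were added after their values were seen. Neighbours and start regions came from RefSeq tables of GRCm38.p6. The alternatives tried were other probe set rules, scalings, priors, thresholds, a filter on low values and leaving out single arrays.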

Additional observations from a re-analysis of the deposited data

Results flagged for a closer look

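Both of the probe sets named next, outside the 33 chosen, showed a signal in TTF above every pluripotent array. A probe set shared by Hoxb8 and Hoxb7 was at 5.74 in TTF and 3.48 in VM, 2.16 log2 units above the highest pluripotent array, while the Hoxb7 probe set alone was at 3.56 in TTF. The second Hoxa9 probe set was 3.50 log2 units above the highest pluripotent array. Hoxb3 and Hoxb13 differed in opposite directions between source and induced cells in all 3 arrays of each group, by at least 0.5 log2 units, and the difference was not tested. Hoxb3 was −1.93 in TiPSC minus TTF and 0.57 in ViPSC minus VM. This holds for the chosen Hoxb3 probe set only: on the other, VM was at 4.84, above all ViPSC arrays at 4.61, 4.39 and 4.61. Hoxb13 was −5.24 in TiPSC minus TTF and 0.58 in ViPSC minus VM.
Groups of 3 arrays or fewer were not searched for single outlying arrays.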

How the results depend on the processing

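The count of members passing between pluripotent groups was 0 in all 3 comparisons with only the 6 arrays compared, the trend and robust prior, the mean of all probe sets, every probe set tested, the filter at a mean of 5 (which left 5 of 33 members) and centring. Without 1 array it ran from 0 to 2 for ViPSC against mESC, with 2 only without mESC 1, and was 0 in the other comparisons. The number of all genes called ran over these settings from 207 to 2621 between ViPSC and TiPSC, from 22 to 2519 between ViPSC and mESC and from 1 to 3038 between TiPSC and mESC. The replicate numbers did not pair the arrays: same-numbered arrays correlated at −0.12 to 0.12 in their deviations from the group means, and 5 of 18 matches were best with the own number. With the replicate block 0 members passed in each comparison, and 623, 103 and 9 of all genes did. Between TTF and VM, 14 members were apart at 1 log2 unit and 5 at 3, against 8 at 2. At 3 log2 units, 4 members were higher in TTF than mESC and 5 than TiPSC. Averaging all probe sets gave a TTF minus VM difference of 2.06 for Hoxa10 and 1.56 for Hoxb3, and of 2.52 for Hoxa9, so that Hoxa9 took the place of Hoxb3 among the 8. The other Hoxb3 probe set gave 0.58. Against mESC centring left 7 members, without Hoxb6, and averaging put Hoxa9 in place of Hoxa10. Single other probe sets, the gene lists under each setting and the intervals and overlaps without mESC 1 were alternatives chosen after seeing the data. The median of all genes was 0.11 higher in TTF than in VM, and centring lowered each difference by that amount. Without detection calls, values near the bottom of the scale limit what can be said of low members.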

Other observations

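Regional transcription factors outside the Hox clusters were measured in the same cells. TTF exceeded VM by 2 log2 units or more for 2 of 27 and VM exceeded TTF by as much for 1, against 4.62% and 4.68% of all genes. Tbx15, a T-box gene of limb and trunk mesenchyme, was at 7.42 in TTF, 4.51 in VM and 4.12 to 4.76 on the 9 pluripotent arrays. Shox2, a homeobox gene of the limb and the sinoatrial region, was at 7.11 in TTF, 4.03 in VM and 3.82 to 4.31 on the pluripotent arrays. Nkx2-5, a heart transcription factor, was at 9.87 in VM, 5.07 in TTF and 4.81 to 5.26 on the pluripotent arrays. Tbx18 was at 8.13 in TTF and 7.80 in VM, against 5.17 ± 0.15 in ViPSC, 4.90 ± 0.19 in TiPSC and 5.12 ± 0.27 in mESC (SD, n = 3). Of the 27, 0 passed the limma test in any of the 3 replicated comparisons. At an unadjusted p under 0.05 there were 4, 3 and 2, against 21.0%, 17.2% and 18.1% of all genes. Without mESC 1, 2, 4 and 1 passed, against 11%, 13.8% and 16.7% of all genes. Msx2 was just short of the threshold in ViPSC against TiPSC (0.78 ± 0.19, limma adjusted p = 0.051). It passed there without mESC 1 or mESC 3, with the replicate block, with centring and with the filter on low values. With only the 6 arrays compared, Msx2, Hand1 and Six2 passed, where 2621 of all genes did.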
